A study of Rattus norvegicus with 65 samples.

Results

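Acetaminophen (Ace) and 5-fluorouracil (5FU) were compared after 24 h in neonatal rat cardiomyocytes, as a difference between the effects of both drugs on each gene. The log2 fold change of 5FU_24 over its control DMSO1_24 was subtracted from the log2 fold change of Ace_24 over its control DMSO2_24. A positive difference therefore stands for a gene that was higher under Ace than under 5FU, each relative to its own control. The samples were chosen by their labels, as all libraries of these 4 groups, which makes 26 of the 65 libraries of the series, and the difference was computed for all 14554 genes of the count table. The question was which genes 2 drugs given at millimolar doses moved alike and which they moved apart.

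Ace_24 held 7 cultures given 2.5 mM Ace in 0.25% DMSO for 24 h, and DMSO2_24 held 7 cultures given 0.25% DMSO alone. 5FU_24 held 6 cultures given 10 mM 5FU in 1% DMSO for 24 h, and DMSO1_24 held 6 cultures given 1% DMSO alone. Drug, dose and DMSO share differ together between these arms, so drug and dose cannot be told apart. Cells came from hearts of several litters taken on the same day and were mixed before plating, then kept overnight without serum before treatment. The libraries are therefore parallel cultures of 1 cell pool, and a p-value measures the spread between cultures. PolyA RNA was sequenced, and the values are estimated counts per gene. The library totals ran from 14332827 to 21413498 counts, and 12310 genes had at least 10 counts in all 26 libraries. Levels are given in CPM, a gene's counts scaled to the effective library size, as the lowest, the median and the highest culture of a group. Effects are log2 fold changes ± SE from edgeR, called at FDR < 0.01 over all genes.

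Ace is an analgesic that lowers prostaglandin synthesis. In the liver most of it is conjugated with glucuronic acid or sulfate, while a small share is oxidized to a reactive quinone imine that glutathione binds, and NRF2 is the transcription factor that drives glutathione synthesis and quinone reduction. 5FU is a fluorinated uracil whose products block thymidylate synthase and enter RNA and DNA, and p53 is the transcription factor best known for the response to such damage. Neonatal cardiomyocytes are leaving the cell cycle, and cultures of heart cells also hold fibroblasts, which make most of the collagen and divide more readily.

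The first DMSO1_24 library in file order stood apart from its group. Its median absolute log2 deviation from the other DMSO1_24 libraries was 0.163 over 10658 genes, against 0.0784 to 0.104 for the other DMSO1_24 libraries and 0.0545 to 0.108 for the libraries of the other 3 groups. In this library 144 genes deviated by more than 1 on the log2 scale, against 8 to 37 in the other 25. Across genes, which are not independent replicates, its deviation ran with the difference between 5FU_24 and DMSO2_24 (r = 0.649, slope 0.37). The cause was not tested. DMSO1_24 differed from DMSO2_24 in 63 genes (0.433% of those tested, edgeR), 20 higher and 43 lower, and in 10 genes (0.0687%) once this library was left out. Counts and named genes were therefore also computed without it. The 48 named genes were ranked by their own fitted values under a rule, and genes named as members of a list were chosen after their values were seen. A lack of overlap between groups in a named gene only describes its levels, since large effects were chosen. The share of all genes without overlap is not given.

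Cardiac markers were abundant in every group. The summed level of 13 cardiomyocyte markers was 41560, 48700 and 53150 CPM in DMSO2_24 and 40740, 43960 and 45750 CPM in DMSO1_24, with Myh6, the alpha myosin heavy chain, the most abundant. It was 40950, 46160 and 57280 CPM in Ace_24, which overlapped DMSO2_24, and 33710, 33990 and 36210 CPM in 5FU_24, which lay below every DMSO1_24 culture. None of the 13 was at the floor of 3 counts. The summed level of 14 fibroblast markers, led by the collagen gene Col1a1, was 17140, 18640 and 20870 CPM in DMSO2_24 and 8519, 8956 and 10500 CPM in Ace_24. In DMSO1_24 it was 11070, 18070 and 21570 CPM, the lowest being the first library, and in 5FU_24 it was 5873, 6299 and 6461 CPM. Both drug groups thus lay below every culture of their control, and none of the 14 was at the floor. In bulk RNA, fewer cells of a type and less RNA per cell cannot be told apart.

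Of the 14554 genes, 5429 (37.3%) differed between the effects of Ace and 5FU. The difference was higher under Ace for 2779 genes (19.1%) and lower under Ace for 2650 (18.2%), or 3120 and 2006 when scaled by library size alone. Ace raised 2645 genes (18.2%) and lowered 2773 (19.1%), a balance that turned to 3449 up and 2166 down when scaled by library size alone. 5FU raised 4070 genes (28%) and lowered 4047 (27.8%), which turned to 3961 up and 4024 down under the same scaling. The median absolute log2 fold change was 0.1991 for Ace and 0.3452 for 5FU over all genes tested. Without the first DMSO1_24 library 5748 genes (39.5%) differed, and 5282 of them were among the 5429, which is 97.3% of those. With an absolute log2 fold change of at least 1 as well, 718 genes were higher and 197 lower under Ace, 378 rose and 513 fell under Ace, and 316 rose and 1174 fell under 5FU. For each of 51 gene lists the share with a called difference is given beside its counts, and a share near the 37.3% of all genes is no result about that list.

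A call under both drugs, whose effects share no library, was made for 3681 genes, and 85.1% of these moved in the same direction. The 3134 genes moved alike (21.5% of those tested) were 57.8% of the 5418 genes called for Ace and 38.6% of the 8117 called for 5FU. Of these, 1359 rose and 1775 fell under both drugs. For 1543 genes (10.6%), 900 up and 643 down, the 95% interval of the difference lay within 0.5 on the log2 scale. Among the genes that rose under both, 318 rose further with 5FU and 111 rose further with Ace. Among those that fell under both, 479 fell further with 5FU and 51 fell further with Ace. A separate 547 genes (3.76%) moved in opposite directions, 327 up under Ace and down under 5FU, and 220 down under Ace and up under 5FU. Scaling by library size alone turned the balance of the alike genes, to 1748 up and 1526 down, and gave 428 and 114 for the opposite genes. Across genes, which are not independent replicates, r between both effects was 0.477 and rho 0.457.

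**Figure D1:**
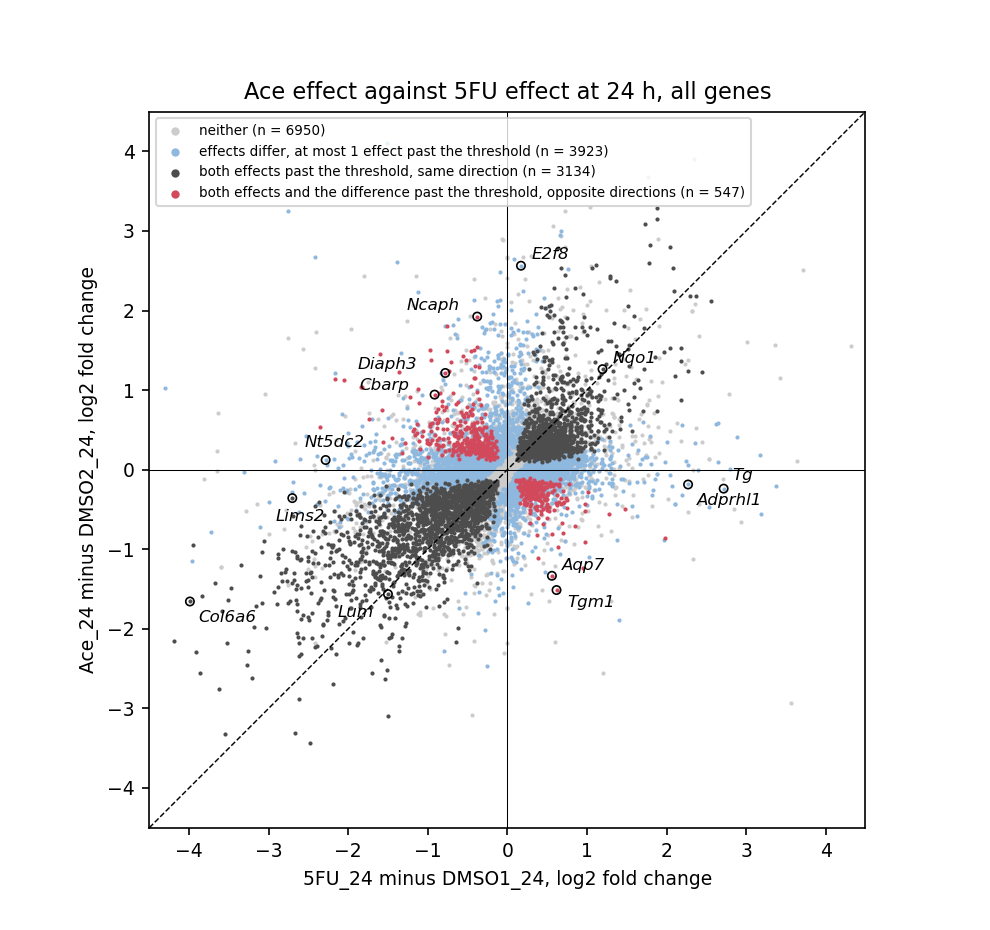
Log2 fold change of each of 14554 genes under 5FU (horizontal axis, 5FU_24 over DMSO1_24) and under Ace (vertical axis, Ace_24 over DMSO2_24), with 3134 genes moved alike in black, 547 moved in opposite directions in red, 3923 whose effects differ with at most 1 effect called in blue and 6950 others in gray. The dashed diagonal marks equal effects, circles mark genes named in the text, and 18 genes lie outside the axes.

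Cell division genes separated the drugs. Of 40 genes for G2/M and mitosis, 38 rose under Ace and 2 were not called, with a median of 1 against -0.00082 over all genes tested. Under 5FU, 5 rose, 8 fell and 27 were not called (median -0.13, and -0.086 without the first DMSO1_24 library, all genes -0.0094). The difference was called for 37 of the 40, all higher under Ace (92.5%, median 1.1, all genes 0.0075), and for 34 without the first DMSO1_24 library, which ended the calls of Mad2l1, Cenpa and Prc1. Mki67, the proliferation antigen, rose under Ace by 1.05 and fell under 5FU (-0.45), a difference of 1.51 ± 0.17 (edgeR adjusted p = 1.19e-10). The motor kinesin Kif11 behaved likewise, at 1.15 under Ace and -0.42 under 5FU, a difference of 1.57 ± 0.17 (edgeR adjusted p = 5.91e-12). Top2a, the topoisomerase that untangles sister chromatids, rose under Ace (1.57) and was not called under 5FU (0.15), a difference of 1.42 ± 0.14 (edgeR adjusted p = 9.2e-13).

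E2f8, an E2F family repressor of cell cycle genes, stood at 7.02, 12.9 and 16.1 CPM in Ace_24 and at 1.35, 2.22 and 2.53 CPM in DMSO2_24. In 5FU_24 it stood at 1.87, 2.75 and 3.66 CPM, and in DMSO1_24 at 1.93, 2.35 and 3.04 CPM. Every Ace_24 culture was above every DMSO2_24 culture, while 5FU_24 and DMSO1_24 overlapped. The log2 fold change of E2f8 was 2.56 ± 0.17 (edgeR adjusted p = 5.91e-20) under Ace and 0.17 ± 0.20 (edgeR adjusted p = 0.477) under 5FU. The difference was 2.39 ± 0.27 (edgeR adjusted p = 4.54e-11).

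Ncaph, a subunit of the condensin complex that compacts mitotic chromosomes, stood at 17, 27.1 and 30.6 CPM in Ace_24 against 5.96, 6.44 and 8.45 CPM in DMSO2_24. It stood at 5.62, 6.09 and 7.05 CPM in 5FU_24 against 7.22, 7.79 and 9.24 CPM in DMSO1_24. Neither drug group overlapped its control, Ace_24 lying above and 5FU_24 below. Ncaph rose by 1.92 ± 0.10 (edgeR adjusted p = 1.25e-23) under Ace and changed by -0.38 ± 0.12 (edgeR adjusted p = 0.00532) under 5FU, a difference of 2.30 ± 0.16 (edgeR adjusted p = 2.18e-18). Pclaf, which binds the sliding clamp PCNA at forks, had a difference of 2.22 ± 0.21 (edgeR adjusted p = 7.9e-14), with a call under Ace (2.13) but not under 5FU (-0.09). Ankle1, an endonuclease that cuts branched DNA, had a difference of 2.14 ± 0.21 (edgeR adjusted p = 2.97e-13) and likewise a call under Ace alone (1.96, against -0.18 under 5FU). Parpbp, a partner of PARP1 that restrains homologous recombination, rose under Ace (1.49) and fell under 5FU (-0.76), a difference of 2.24 ± 0.21 (edgeR adjusted p = 6.93e-14). The last Ace_24 library was the lowest of its group for E2f8, Ncaph, Parpbp and Ankle1, yet remained above all DMSO2_24 cultures for each.

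**Figure D2:**
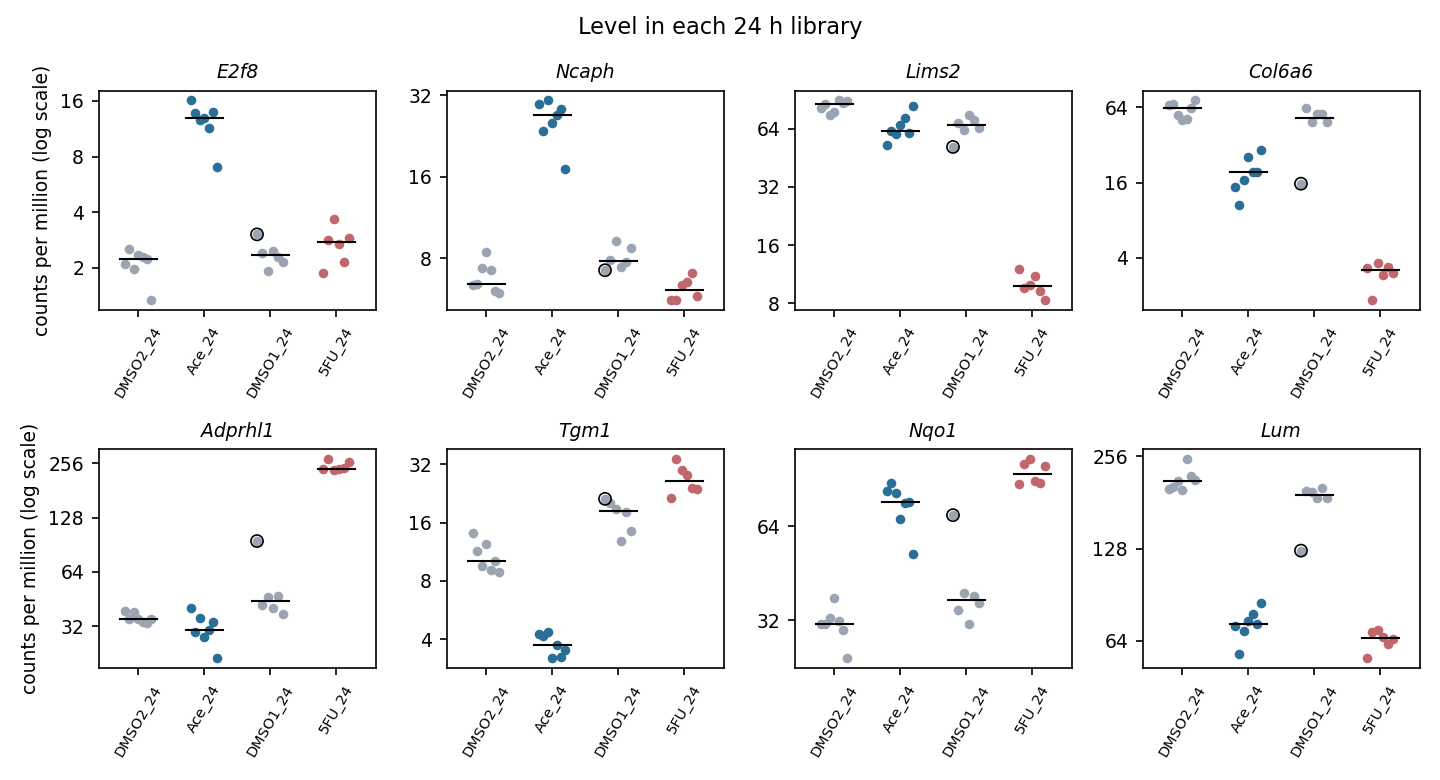
Level of 8 named genes in each of the 26 libraries (CPM, log axis) by group, with bars at the group medians and the first DMSO1_24 library ringed. E2f8 and Ncaph were higher in every Ace_24 culture than in every DMSO2_24 culture, Adprhl1 and Tgm1 were higher in every 5FU_24 culture than in every DMSO1_24 culture, Nqo1 was higher and Lum lower under both drugs, and Col6a6 was lower under both and lowest in 5FU_24.

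DNA replication genes rose under Ace. Of its 46 genes, 43 rose and 1, Pola2, fell under Ace (median 0.86), while 20 rose, 6 fell and 20 were not called under 5FU (median 0.2), where 28% of all genes rose and 27.8% fell. The difference was called higher under Ace for 31 genes (67.4%), with a median of 0.67. Mcm10, which helps to start the replicative helicase, rose under Ace (1.54) and fell under 5FU (-0.38), a difference of 1.92 ± 0.15 (edgeR adjusted p = 4.89e-16). E2f1, the activator of the program, had a difference of 1.63 ± 0.17 (edgeR adjusted p = 8.62e-12), rising under Ace (1.76) with no call under 5FU (0.13). Pcna, the sliding clamp, rose under both and further under Ace, with a difference of 0.30 ± 0.084 (edgeR adjusted p = 0.0024). Rfc2, a clamp loader subunit, rose by 0.71 under Ace and 0.78 under 5FU, and its difference was not called (-0.07 ± 0.084, edgeR adjusted p = 0.486). Without the first DMSO1_24 library Rpa2, a subunit of the single-strand binding complex, was added as lower under Ace (-0.36).

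Repair of double-strand breaks and crosslinks followed. Under Ace 28 of 39 genes rose and 11 were not called (median 0.64), whereas under 5FU 10 rose and 10 fell (median 0.12). Between the drugs, the difference was higher under Ace for 27 and lower for 3 (Rbbp8, Nbn and Rnf168), 76.9% in all, with a median of 0.74. Brca1, the tumor suppressor of homologous recombination, rose by 1.72 ± 0.10 (edgeR adjusted p = 1.19e-22) under Ace, while its value under 5FU was -0.30, a difference of 2.02 ± 0.15 (edgeR adjusted p = 6.56e-17). Rad54l, a motor of strand exchange, rose under Ace (1.81) and fell under 5FU (-0.76), a difference of 2.57 ± 0.18 (edgeR adjusted p = 4.58e-18). Prkdc, the catalytic subunit of DNA-dependent protein kinase, fell under 5FU (-1.16) and was not called under Ace (0.20), a difference of 1.36 ± 0.12 (edgeR adjusted p = 9.87e-15). Calls of 2 Fanconi genes, Fancg and Fancm, were lost without the first DMSO1_24 library, at 0.63 and 0.33.

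Genes for nucleotide supply, which include the targets of 5FU, were mixed. Of 32 genes for 5FU activation, degradation and thymidylate synthesis, 12 rose and 3 fell under Ace (median 0.084), and 10 rose and 11 fell under 5FU (median 0.083). A difference was called for 13 of the 32 (40.6%), against 37.3% of all genes, higher under Ace for 9 and lower for 4 (median 0.12). Tyms, thymidylate synthase itself, rose under Ace (0.50) and was not called under 5FU (0.09), with a difference of 0.41 ± 0.11 (edgeR adjusted p = 0.00114). Without the first DMSO1_24 library Tyms was called up under 5FU as well (0.26), and the difference was 0.24. Rrm2, the regulated subunit of ribonucleotide reductase, rose under both and further under Ace, by 2.04 against 0.42, a difference of 1.63 ± 0.20 (edgeR adjusted p = 5.05e-10). Tk1, the thymidine kinase of dividing cells, rose under Ace (0.50) and fell under 5FU (-0.51), a difference of 1.02 ± 0.13 (edgeR adjusted p = 3.59e-09). Dpyd, which starts 5FU breakdown, fell under 5FU (-0.67), with a value of -0.37 under Ace and no call for the difference (0.30 ± 0.21, edgeR adjusted p = 0.247).

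Most collagens fell under both drugs, and 5FU lowered most of them further. All 27 collagens tested fell under 5FU (median -1.5), and 18 fell under Ace with 9 not called (median -0.74). In this list the difference was higher under Ace for 20 and lower for 1, Col26a1 (77.8% called, median 0.74). Col3a1, a fibrillar chain made by fibroblasts, changed by -1.33 ± 0.10 (edgeR adjusted p = 4.27e-17) under Ace and by -2.07 ± 0.11 (edgeR adjusted p = 7.72e-24) under 5FU, a difference of 0.74 ± 0.15 (edgeR adjusted p = 3.77e-05). Col4a1 of basement membranes fell under 5FU (-0.85) with no call under Ace (-0.23), a difference of 0.62 ± 0.14 (edgeR adjusted p = 0.000324). Col26a1 fell further under Ace (-2.64) than under 5FU (-1.53), a difference of -1.10 ± 0.32 (edgeR adjusted p = 0.0029). The fibroblast markers include the collagens Col1a1, Col1a2 and Col3a1, so they are not independent of the collagens. Of these markers, 14 of 14 fell under 5FU (median -1.3) and 11 of 14 fell under Ace (median -0.81). Their difference was higher under Ace for 7 and lower for 1, Dpt (57.1% called). Their part in the result was not tested.

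Col6a6, a chain of the microfibrillar collagen VI, stood at 10.5, 19.4 and 28.9 CPM in Ace_24 and 50.3, 63.2 and 72.2 CPM in DMSO2_24. It stood at 1.86, 3.19 and 3.66 CPM in 5FU_24 and 15.6, 52.5 and 63.4 CPM in DMSO1_24, where the lowest value was that of the first library. Both drug groups lay wholly below their controls. Col6a6 changed by -1.66 ± 0.17 (edgeR adjusted p = 3.37e-12) under Ace and -3.99 ± 0.23 (edgeR adjusted p = 4.36e-23) under 5FU, a difference of 2.33 ± 0.29 (edgeR adjusted p = 6.5e-10). C6h14orf180 also fell under both, by -1.20 and -3.35, a difference of 2.16 ± 0.23 (edgeR adjusted p = 8.31e-12).

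Lims2, an adaptor of integrin-linked kinase at focal adhesions, stood at 8.35, 9.8 and 12.1 CPM in 5FU_24 against 51.4, 66.4 and 75.6 CPM in DMSO1_24, with no overlap. In Ace_24 it stood at 52.4, 62.4 and 83.3 CPM and in DMSO2_24 at 75, 85.7 and 89.4 CPM, which overlapped. Lims2 changed by -0.36 ± 0.088 (edgeR adjusted p = 0.000549) under Ace and by -2.70 ± 0.11 (edgeR adjusted p = 9.19e-30) under 5FU, a difference of 2.35 ± 0.14 (edgeR adjusted p = 8.6e-21). Nt5dc2 stood at 7.32, 7.5 and 8.87 CPM in 5FU_24 against 16.3, 37.9 and 49.1 CPM in DMSO1_24, and at 43, 49.9 and 53.1 against 39.4, 44.4 and 49.4 CPM in Ace_24 and DMSO2_24. All 5FU_24 cultures lay below DMSO1_24, and Ace_24 overlapped DMSO2_24. Its change was called under 5FU (-2.28 ± 0.13, edgeR adjusted p = 1.51e-23) and not under Ace (0.12), a difference of 2.40 ± 0.16 (edgeR adjusted p = 8.19e-19). Apln, the peptide ligand apelin that strengthens heart contraction, likewise fell under 5FU (-2.27), with 0.05 under Ace and a difference of 2.33 ± 0.29 (edgeR adjusted p = 9.59e-10).

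Many genes for proteins that decorate or cut the matrix fell. Of 35 matricellular proteins and proteoglycans, 28 fell under Ace (median -0.81) and 29 under 5FU (median -1.4), and the difference was higher under Ace for 14 and lower for 4 (Sparc, Thbs3, Ccn3 and Prelp), 51.4% in all. Vcan, the large proteoglycan versican, changed by -0.62 under Ace and -1.43 under 5FU, a difference of 0.81 ± 0.11 (edgeR adjusted p = 1.33e-08). Ccn3, by contrast, fell under Ace (-1.49) and was not called under 5FU (-0.11), a difference of -1.37 ± 0.28 (edgeR adjusted p = 3.71e-05). Of 32 matrix proteases and inhibitors, 19 fell and 2 rose under Ace (median -0.55), while 19 fell and 1, the inhibitor Timp1, rose under 5FU (median -0.49). Of the 32, 13 had a called difference (40.6%), against 37.3% of all genes, higher under Ace for 10 and lower for 3 (median 0.16), with Adam12, a membrane protease, at 1.37 ± 0.19 (edgeR adjusted p = 1.14e-08).

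Genes for signals that fibroblasts exchange fell more often than they rose. Of 35 genes for TGF-beta signaling, 20 fell and 1 rose under Ace (median -0.46) and 23 fell and 1 rose under 5FU (median -0.41). The 1 riser was Ski, a repressor of SMAD proteins, under both drugs (0.21 and 0.64). The difference was called for 7 of the 35 (20%), 4 higher and 3 lower under Ace. Bmp4, a ligand of this family, changed by -1.24 and -1.32, with no call for the difference (0.07 ± 0.18, edgeR adjusted p = 0.773). Of 25 Wnt ligands and secreted inhibitors, 11 fell under Ace (median -0.51) and 14 under 5FU (median -0.75, and -0.41 without the first DMSO1_24 library), with 3 differences called (12%), or 5 without that library, each higher under Ace. Of 16 genes of the IGF axis, 8 fell under Ace (median -0.33) and 10 under 5FU (median -0.73), with 5 differences higher and 2 lower under Ace (43.8% called). Igf1, the growth factor, changed by -1.69 and -1.86 (difference 0.17 ± 0.14, edgeR adjusted p = 0.335). Its binding proteins went apart, with Igfbp4 higher under Ace (1.88 ± 0.15, edgeR adjusted p = 5.8e-16) and Igfbp5 lower under Ace (-1.44 ± 0.32, edgeR adjusted p = 0.000174).

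Genes that fell by nearly the same amount under both drugs were chosen for an interval of the difference within 0.5. Lumican (Lum), a proteoglycan of collagen fibrils, stood at 57.8, 72.7 and 84.9 CPM in Ace_24 against 200, 213 and 251 CPM in DMSO2_24. It stood at 56.2, 65.5 and 69.6 CPM in 5FU_24 against 126, 192 and 202 CPM in DMSO1_24, the first library being the lowest of its group. Each drug group lay below its control without overlap. Lum changed by -1.56 ± 0.084 (edgeR adjusted p = 5.28e-24) under Ace and -1.50 ± 0.091 (edgeR adjusted p = 3.63e-22) under 5FU. The 7 others of this kind were Eln (elastin), Adamts14 (a processing protease of procollagen), Plau (urokinase), Gpm6b, Lypd1, Tm4sf1 and Sertad4. For the 8 together the difference ran from -0.0634 to 0.114, and every drug group lay below its control. The first DMSO1_24 library was the lowest of its group for all 8.

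The amino acid response of ATF4 and the folding response of the endoplasmic reticulum fell under 5FU more than under Ace. Of 28 ATF4 response genes, 21 fell and 3 rose under 5FU (median -0.9), while 13 fell and 3 rose under Ace (median -0.26). Called differences were higher under Ace for 16 and lower for 2, Sesn2 and Ddit4 (64.3% called, median 0.66). Atf4 itself fell under 5FU (-0.94) and was not called under Ace (-0.25), a difference of 0.69 ± 0.13 (edgeR adjusted p = 9.68e-06). The glutamine carrier Slc1a5 had a difference of 1.76 ± 0.17 (edgeR adjusted p = 4.69e-13), at -2.02 under 5FU with -0.26 under Ace. Ddit3, the death-linked factor CHOP, rose under Ace (0.70) and fell under 5FU (-0.29), a difference of 0.99 ± 0.10 (edgeR adjusted p = 1.53e-12). The stress hormone Gdf15 rose under both, by 3.15 and 1.88, and its difference of 1.27 ± 0.41 (edgeR adjusted p = 0.00837) was lost without the first DMSO1_24 library (0.10).

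Of 26 endoplasmic reticulum stress genes, 19 fell and 2 rose under 5FU (median -0.44), and 6 fell and 1 rose under Ace (median -0.063). The difference was higher under Ace for 14 and lower for 1, Derl1 (57.7% called, median 0.31). Hspa5, the main chaperone of this compartment, changed by -0.78 ± 0.074 (edgeR adjusted p = 3.07e-14) under 5FU, with -0.05 under Ace and a difference of 0.74 ± 0.10 (edgeR adjusted p = 1.08e-08). Sdf2l1, one of its partners, had a difference of 1.47 ± 0.18 (edgeR adjusted p = 2.97e-10). Of 24 heat shock genes, 13 rose and 2 fell under 5FU (median 0.21), and 6 rose and 3 fell under Ace (median 0.1). Between the drugs, the difference was lower under Ace for 7, which included the small heat shock proteins Hspb6 (-0.90 ± 0.19, edgeR adjusted p = 8.25e-05) and Hspb7 (-0.73 ± 0.12, edgeR adjusted p = 8.88e-07), and higher for 1, Hspa8 (0.91 ± 0.14, edgeR adjusted p = 8.86e-08), a called share of 33.3%. Hsp90ab1 joined as a second higher gene without the first DMSO1_24 library (0.19).

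Several genes rose under 5FU alone at 24 h. Thyroglobulin (Tg), the thyroid hormone precursor, stood at 24, 24.8 and 27.6 CPM in 5FU_24 and 1.89, 2.44 and 11 CPM in DMSO1_24, where the highest value was the first library. It stood at 1.95, 2.54 and 2.96 CPM in Ace_24 and 2.05, 2.87 and 3.49 CPM in DMSO2_24. Every 5FU_24 culture was above DMSO1_24, whereas Ace_24 overlapped its control. Tg rose by 2.72 ± 0.23 (edgeR adjusted p = 2.65e-16) under 5FU, with -0.24 under Ace and a difference of -2.96 ± 0.33 (edgeR adjusted p = 4.42e-11). Without the first DMSO1_24 library Tg rose by 3.43 under 5FU and its difference was -3.67. Adprhl1, a heart-restricted relative of the ADP-ribosylhydrolases, stood at 237, 240 and 271 CPM in 5FU_24 and 37.3, 44 and 94.9 CPM in DMSO1_24. It stood at 21.2, 30.3 and 40.4 CPM in Ace_24 and 33.4, 34.9 and 38.6 CPM in DMSO2_24, which overlapped, while 5FU_24 was above its control. Adprhl1 rose by 2.27 ± 0.17 (edgeR adjusted p = 1.21e-17) under 5FU, a difference of -2.46 ± 0.24 (edgeR adjusted p = 4.06e-13) (-2.73 without that library), with -0.19 under Ace.

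Rbm14, a coactivator that binds RNA, stood at 111, 117 and 121 CPM in 5FU_24 and at 26.6, 29.3 and 95.8 CPM in DMSO1_24. The highest DMSO1_24 value was the first library, and 5FU_24 still lay above it. In Ace_24 it stood at 20.2, 27.9 and 33 CPM and in DMSO2_24 at 29.1, 30.4 and 34.2 CPM, which overlapped. Rbm14 rose by 1.53 ± 0.15 (edgeR adjusted p = 5.69e-14) under 5FU, with -0.16 under Ace and a difference of -1.70 ± 0.20 (edgeR adjusted p = 3.39e-10). Its difference grew to -2.17 without the first DMSO1_24 library. Mettl17, an assembly factor of the mitochondrial ribosome, had a difference of -1.49 ± 0.12 (edgeR adjusted p = 1.29e-15). Dph7, which helps to make the diphthamide of elongation factor eEF2, had a difference of -1.52 ± 0.14 (edgeR adjusted p = 3.65e-14). Masp2, a protease of the complement system, and Rasgrp1, an activator of Ras, had differences of -1.66 ± 0.18 (edgeR adjusted p = 3.87e-11) and -1.55 ± 0.19 (edgeR adjusted p = 4.68e-10). Each of these 4 rose under 5FU with every 5FU_24 culture above DMSO1_24, and under Ace, where they overlapped DMSO2_24, their values were -0.17, -0.20, 0.34 and 0.14 in this order.

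Mitochondrial genes leaned toward 5FU. Of 60 mitochondrial ribosomal proteins, 41 rose under 5FU (median 0.29), and 12 rose and 2 fell under Ace, where the median of -0.016 turned positive when scaled by library size alone. Tested as such, the difference was lower under Ace for 27 (45%), with a median of -0.26. Mrps17, of the small subunit, rose under 5FU (0.86) and was not called under Ace (0.17), a difference of -0.69 ± 0.083 (edgeR adjusted p = 2.36e-10). Of 49 oxidative phosphorylation genes, 20 rose and 2 fell under 5FU (median 0.15), while 9 fell and 1 rose under Ace (median -0.12). In this list the difference was lower under Ace for 22 (44.9%, median -0.26), among them Cox5b of cytochrome oxidase (-0.61 ± 0.11, edgeR adjusted p = 4.77e-06). Without the first DMSO1_24 library 26 were called lower, the call of Ndufs7 was lost (-0.28), and 1 in place of 2 fell under 5FU.

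Of 21 TCA cycle genes, 8 rose and 5 fell under 5FU (median 0.13), and 7 fell and 1 rose under Ace (median -0.086). Set against 5FU, the difference was lower under Ace for 10 and higher for 3 (61.9% called, median -0.16). Idh3b, of the isocitrate dehydrogenase, fell under Ace (-0.32) and rose under 5FU (0.26), a difference of -0.58 ± 0.075 (edgeR adjusted p = 3.19e-09). Of 30 fatty acid oxidation genes, 12 fell under Ace (median -0.16), and 8 rose and 7 fell under 5FU (median -0.036). A difference was called for 12 of the 30 (40%), against 37.3% of all genes, lower under Ace for 10 and higher for 2, Acadvl and Lpl (median -0.11). Ucp3, an uncoupling protein of muscle mitochondria, rose under 5FU (1.85) with -0.12 under Ace, a difference of -1.98 ± 0.51 (edgeR adjusted p = 0.000873). Of 24 glycolysis genes, 5 fell under Ace, where the median of -0.045 turned positive when scaled by library size alone, and 5 rose and 9 fell under 5FU (median -0.13). The difference was higher for 4 and lower for 4 of them (33.3% called), the lower including Pgam1 (-1.09 ± 0.14, edgeR adjusted p = 3.56e-09).

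Proteasome genes rose under 5FU more often than under Ace. Of 34 proteasome genes, 32 rose under 5FU and 1, Psme4, fell (median 0.44), and 17 rose under Ace (median 0.12). Between the drugs, the difference was lower under Ace for 23 and higher for Psme4 alone (70.6% called, median -0.28). Psmd6, of the regulatory particle, rose under 5FU (0.61), with -0.0014 under Ace and a difference of -0.61 ± 0.082 (edgeR adjusted p = 6.64e-09). Psmd3 rose under both, by 0.36 and 0.53, a difference of -0.18 ± 0.054 (edgeR adjusted p = 0.00579). Of 34 autophagy and lysosome genes, 16 rose and 7 fell under 5FU (median 0.13), and 9 rose and 8 fell under Ace (median 0.051). Tested as such, the difference was lower under Ace for 10 and higher for 5 (44.1% called, median -0.11), with Tfeb, a regulator of lysosome genes, at -0.68 ± 0.074 (edgeR adjusted p = 2.51e-11).

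Interferon response genes and hemoglobins rose under 5FU. Of 30 interferon response genes, 21 rose and 2 fell under 5FU (median 0.67), and 10 rose and 4 fell under Ace (median 0.12). In this list the difference was lower under Ace for 11 (36.7%, against 37.3% of all genes, median -0.49) and for 13 without the first DMSO1_24 library. Rsad2, the antiviral protein viperin, rose under 5FU (2.65), with 0.58 under Ace and a difference of -2.07 ± 0.41 (edgeR adjusted p = 2.28e-05). Ifih1, a sensor of double-stranded RNA, had a difference of -1.09 ± 0.13 (edgeR adjusted p = 6.93e-10). All 6 red cell markers tested rose under 5FU (median 1.2), and the difference was lower under Ace for 2 of them (33.3%), Hba-a1 (-1.24 ± 0.32, edgeR adjusted p = 0.000973) and Hba-a2 (-1.28 ± 0.30, edgeR adjusted p = 0.000381). Their summed level was 61.38, 74.54 and 92.37 CPM in 5FU_24 and 25.92, 34.45 and 40.15 CPM in DMSO1_24, without overlap. It was 20.87, 25.48 and 43.62 CPM in Ace_24 and 17.34, 26.83 and 29.85 CPM in DMSO2_24, which overlapped. Hba-a1 was the most abundant, none was at the floor, and their part in the result was not tested.

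Genes for RNA handling rose under 5FU more often than they fell, where 28% of all genes rose and 27.8% fell. Of 28 pseudouridine synthases and RNA exosome genes, 13 rose and 2 fell under 5FU (median 0.13), and 4 rose and 1 fell under Ace (median 0.049). A difference was called for 11 of the 28 (39.3%), against 37.3% of all genes, lower under Ace for 9 and higher for 2, Exosc2 and Exosc5 (median -0.14). Dis3, a nuclease of the exosome, rose under 5FU (0.65) with -0.23 under Ace, a difference of -0.88 ± 0.12 (edgeR adjusted p = 1.83e-08). Of 46 genes for ribosome biogenesis and the nucleolus, 21 rose and 6 fell under 5FU (median 0.17), and 6 rose and 8 fell under Ace (median 0.0079). Of these 46, 19 had a called difference (41.3%), against 37.3% of all genes, lower under Ace for 14 and higher for 5 (median -0.14). Polr1c, a subunit shared by RNA polymerases I and III, had a difference of -1.45 ± 0.093 (edgeR adjusted p = 1.94e-19), and Nop56, a core protein of box C/D particles, had 0.69 ± 0.091 (edgeR adjusted p = 3.28e-09).

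Of 53 cytosolic ribosomal proteins, 17 fell and 2 rose under 5FU (median -0.13), and 3 fell under Ace (median -0.089). With 18.9% called, the difference was higher under Ace for 9, among them Rpl3 (1.21 ± 0.12, edgeR adjusted p = 1.66e-12), and lower for 1, Rpsa (-0.32 ± 0.10, edgeR adjusted p = 0.00486), with Rpl19 added as lower without the first DMSO1_24 library (-0.35). Of 22 aminoacyl-tRNA synthetases, 9 fell and 4 rose under 5FU (median -0.1), and 4 fell and 1 rose under Ace (median -0.14). With 22.7% called, the difference was higher under Ace for 4, among them Lars1 (0.67 ± 0.11, edgeR adjusted p = 4.57e-07), and lower for 1, Rars1 (-0.40 ± 0.10, edgeR adjusted p = 0.000492). The median difference of this list, -0.027, turned positive when scaled by library size alone and was 0.0044 without the first DMSO1_24 library.

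The 16 genes named for opposite movement were those with the largest smaller effect of the drug pair, 8 in each direction. Timeless, which protects stalled replication forks, stood at 17.9, 19.4 and 21.2 CPM in Ace_24 against 9.27, 11.2 and 12.6 CPM in DMSO2_24. It stood at 6.14, 6.9 and 7.49 CPM in 5FU_24 against 8.79, 10.8 and 12.7 CPM in DMSO1_24. Ace_24 lay above and 5FU_24 below its control, with no overlap. Timeless rose by 0.82 ± 0.072 (edgeR adjusted p = 4.66e-15) under Ace and changed by -0.65 ± 0.085 (edgeR adjusted p = 8.72e-10) under 5FU, a difference of 1.47 ± 0.11 (edgeR adjusted p = 5.02e-17).

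Gls2, the liver-type glutaminase of mitochondria, stood at 10.6, 12 and 12.7 CPM in Ace_24 against 3.9, 5.02 and 5.7 CPM in DMSO2_24, with no overlap. It stood at 3.16, 3.49 and 4.25 CPM in 5FU_24 and 2.93, 6.43 and 6.96 CPM in DMSO1_24, which overlapped because the first DMSO1_24 library was low. Gls2 changed by 1.24 ± 0.12 (edgeR adjusted p = 4.53e-14) under Ace and -0.74 ± 0.14 (edgeR adjusted p = 3.92e-06) under 5FU, a difference of 1.97 ± 0.18 (edgeR adjusted p = 3.98e-14). The others that rose under Ace and fell under 5FU were Parpbp, Cbarp (a modulator of calcium channels), Diaph3 (an actin nucleator), Slc2a13 (a myo-inositol carrier), Scd (stearoyl-CoA desaturase) and Nudt6. The differences of these 8 ran from 1.47 for Timeless to 2.24 for Parpbp. Scd overlapped its control in both comparisons, and Diaph3 and Slc2a13 overlapped theirs under 5FU.

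Aqp7, a channel for water and glycerol, stood at 2.13, 3.28 and 3.46 CPM in Ace_24 against 6.47, 7.29 and 7.91 CPM in DMSO2_24. It stood at 7.8, 9.24 and 9.69 CPM in 5FU_24 against 4.5, 6.48 and 7.66 CPM in DMSO1_24. Ace_24 lay below and 5FU_24 above its control, without overlap. Aqp7 changed by -1.33 ± 0.12 (edgeR adjusted p = 2.17e-14) under Ace and 0.56 ± 0.12 (edgeR adjusted p = 6.72e-05) under 5FU, a difference of -1.89 ± 0.17 (edgeR adjusted p = 5.45e-14). Tgm1, a transglutaminase that crosslinks proteins, stood at 3.18, 3.74 and 4.35 CPM in Ace_24 against 8.91, 10.1 and 14.1 CPM in DMSO2_24. It stood at 21.6, 26.2 and 34.2 CPM in 5FU_24 against 12.9, 18.4 and 21.2 CPM in DMSO1_24, again with no overlap on either side. Its difference was -2.13 ± 0.27 (edgeR adjusted p = 1.22e-09).

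Myh11, the smooth muscle myosin heavy chain, stood at 35.7, 38 and 39 CPM in 5FU_24 against 10.1, 12.5 and 20.6 CPM in DMSO1_24 with no overlap. In Ace_24 it stood at 8.21, 9.67 and 13 CPM and in DMSO2_24 at 12.4, 12.9 and 17.6 CPM, which overlapped. Myh11 changed by -0.50 ± 0.12 (edgeR adjusted p = 0.000474) under Ace and rose by 1.48 ± 0.12 (edgeR adjusted p = 2.24e-16) under 5FU, a difference of -1.97 ± 0.17 (edgeR adjusted p = 1e-14). The rest of this direction were Syt14 (a synaptotagmin), Yipf7, Stk36 (a kinase of motile cilia), Slc25a26 (the mitochondrial carrier of S-adenosylmethionine) and Adcy1 (an adenylyl cyclase), and the 8 differences ran from -2.13 for Tgm1 to -0.999 for Adcy1. Each lay above DMSO1_24 in every 5FU_24 culture, and Adcy1 and Myh11 overlapped DMSO2_24 under Ace. Of the 12 smooth muscle and pericyte markers, Myh11 among them, 8 fell under Ace (median -0.37), while 9 fell and 2 rose under 5FU (median -0.93). Beside Myh11 the riser was Cnn1, an actin-binding protein of smooth muscle (1.41), with 0.64 under Ace and no call for the difference (-0.77 ± 0.34, edgeR adjusted p = 0.0575).

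Of 21 NRF2 targets, 14 rose and 1 fell under Ace (median 0.56), and 9 rose, 2 fell and 10 were not called under 5FU (median 0.19). Tested as such, the difference was higher under Ace for 8 and lower for 2 (47.6% called, median 0.2), and lower for 3 without the first DMSO1_24 library. Nqo1, the quinone reductase, stood at 52.2, 76.4 and 87.7 CPM in Ace_24 against 24.2, 31.2 and 37.8 CPM in DMSO2_24. It stood at 87.4, 94.3 and 105 CPM in 5FU_24 against 31.1, 37.2 and 69.4 CPM in DMSO1_24, where the highest was the first library. Each drug group lay above its control without overlap. Nqo1 rose by 1.26 ± 0.10 (edgeR adjusted p = 9.84e-17) under Ace and 1.20 ± 0.11 (edgeR adjusted p = 4.16e-15) under 5FU, and the difference was not called (0.07 ± 0.15, edgeR adjusted p = 0.733), nor without the first DMSO1_24 library (-0.14).

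Gclc, the catalytic subunit of the rate-limiting step of glutathione synthesis, rose under Ace (1.25) and was not called under 5FU (0.19), a difference of 1.06 ± 0.10 (edgeR adjusted p = 3.92e-14). Its smaller rise under 5FU was called without the first DMSO1_24 library (0.22), where the difference was 1.03. Heme oxygenase Hmox1 rose under Ace (1.12) with no call under 5FU (0.08), a difference of 1.04 ± 0.19 (edgeR adjusted p = 7.2e-06). Glutathione reductase Gsr went the other way, at 0.96 under 5FU and -0.00012 under Ace, a difference of -0.96 ± 0.081 (edgeR adjusted p = 2.69e-15). Srxn1, sulfiredoxin, rose under both (1.55 and 1.37), with no call for the difference (0.18 ± 0.26, edgeR adjusted p = 0.6). Ephx1, an epoxide hydrolase, rose under both (1.09 and 1.59), and its difference of -0.50 ± 0.34 (edgeR adjusted p = 0.236) became -1.58 and was called without the first DMSO1_24 library, which ended the call of Aldh3a1 (0.84).

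Of 26 genes for glutathione synthesis and transferases, 6 rose and 4 fell under Ace, where the median of -0.02 turned positive when scaled by library size alone, and 6 rose and 7 fell under 5FU (median 0.087). In this list the difference was higher under Ace for 8 and lower for 4 (46.2% called, median 0.045, and 0.074 without the first DMSO1_24 library), with the transferase Gstt1 at 1.32 ± 0.21 (edgeR adjusted p = 2.82e-07). Of 8 genes for Ace conjugation and oxidation, 3 rose and 1 fell under Ace (median 0.098), and 1 rose and 1 fell under 5FU (median 0.0042, and 0.079 without that library). Here the difference was higher for 3 and lower for 1 (50% called, median 0.017), and higher for 1 and lower for 2 without the first DMSO1_24 library (median -0.031), when 2 rose under 5FU. The genes that changed were Cyp1a1, an oxidase of xenobiotics (1.15, then 1.09 with no call), Por, its reductase (0.22, then 0.18), and Nat1, which gained a call (-0.31, then -0.49). Of 17 genes for prostaglandin synthesis and its receptors, 7 fell and 1 rose under Ace (median -0.35), and 7 fell and 2 rose under 5FU (median -0.53). Ptgs1, the constitutive cyclooxygenase, fell under both (-0.46 and -0.91), with no call for the difference (0.45 ± 0.18, edgeR adjusted p = 0.0291). Set against 5FU, the difference was higher under Ace for 2, Pla2g4a and the receptor Ptgfr (1.96 ± 0.13, edgeR adjusted p = 4.48e-19), and lower for 3 (29.4% called, median 0.38, and 0.2 without the first DMSO1_24 library).

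Of 27 p53 targets, 20 rose and 2 fell under Ace (median 0.4), and 19 rose and 2 fell under 5FU (median 0.66), 16 of them called in the same direction by both. A difference was called for 11 of the 27 (40.7%), against 37.3% of all genes, higher under Ace for 6 and lower for 5 (median -0.17). These counts rest on the first DMSO1_24 library: without it 4 were higher and 13 lower under Ace. Cdkn1a, the cyclin-dependent kinase inhibitor p21, rose by 1.17 ± 0.22 (edgeR adjusted p = 7.68e-06) under Ace and 2.10 ± 0.24 (edgeR adjusted p = 1.57e-11) under 5FU. Its difference was -0.93 ± 0.32 (edgeR adjusted p = 0.0119), and -1.87 without that library (edgeR adjusted p = 3.59e-19). Mdm2, the ligase that degrades p53, went from -0.43 with no call to -0.92 with a call, and so did Bax (-0.47 to -0.79), Fas (-0.45 to -0.97), Aen (-0.39 to -0.81), Eda2r (-0.25 to -0.98), Gtse1 (-0.66 to -1.55) and Ei24 (-0.17 to -0.25). Called values of Ccng1 and Zmat3 grew from -0.52 to -0.82 and from -0.59 to -0.99. Ddias (1.03 to 0.37) and Plk2 (0.45 to 0.34) lost their calls. Pmaip1, the BH3 protein NOXA, was higher under Ace with the library (1.41 ± 0.31, edgeR adjusted p = 0.000114) and without it (1.13).

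Genes that rose by nearly the same amount under both drugs included cytoskeletal and metabolic genes beside Nqo1. Tubb4b, a beta tubulin, stood at 163, 197 and 218 CPM in Ace_24 against 92.9, 100 and 107 CPM in DMSO2_24. It stood at 183, 189 and 212 CPM in 5FU_24 against 98.5, 107 and 135 CPM in DMSO1_24. No drug culture overlapped its control. Tubb4b rose by 0.97 ± 0.068 (edgeR adjusted p = 3.53e-19) under Ace and 0.81 ± 0.073 (edgeR adjusted p = 4.26e-15) under 5FU, with a difference of 0.16 ± 0.10 (edgeR adjusted p = 0.178). The remaining 6 were Pold1 (the catalytic subunit of DNA polymerase delta), Idi1 (an isomerase of sterol synthesis), Fgfr3 (a fibroblast growth factor receptor), Haus3 (a subunit of the augmin complex at the spindle), Nudt11 (a phosphatase of inositol pyrophosphates) and Mien1. For all 8 both drug groups lay above their controls, and the differences ran from -0.0914 to 0.161.

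Idi1 belongs to a list of 33 genes for sterol and fatty acid synthesis, of which 16 rose and 1 fell under Ace (median 0.23) while 9 rose and 12 fell under 5FU (median -0.11). Of the 33, 12 had a called difference (36.4%), against 37.3% of all genes, higher under Ace for 10 and lower for 2, Hmgcs1 and Fdft1 (median 0.19). Dhcr7, the last enzyme of cholesterol synthesis, rose under Ace (0.70) and fell under 5FU (-0.45), a difference of 1.15 ± 0.15 (edgeR adjusted p = 2.91e-09). Of 32 phospholipid synthesis genes, 9 rose and 7 fell under Ace, where the median of -0.054 turned positive when scaled by library size alone, and 12 rose and 11 fell under 5FU (median -0.024, and -0.014 without the first DMSO1_24 library). Between the drugs, the difference was higher under Ace for 8 and lower for 10 (56.2% called, median 0.047), with Lpin3 at 1.78 ± 0.14 (edgeR adjusted p = 9.1e-17) and Chkb at -0.87 ± 0.081 (edgeR adjusted p = 1.03e-13).

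Contractile and electrical genes fell more often than they rose under both drugs. Of 36 sarcomere and Z-disc genes, 10 fell and 2 rose under Ace (median -0.21), and 15 fell and 4 rose under 5FU (median -0.25). Tested as such, the difference was higher under Ace for 13 and lower for 4 (47.2% called, median 0.18). Myh6 fell under 5FU (-0.87) and was not called under Ace (0.09), a difference of 0.96 ± 0.15 (edgeR adjusted p = 2.01e-07). Acta1, a skeletal actin also made by the fetal heart, rose under Ace (1.40) with -0.11 under 5FU, a difference of 1.51 ± 0.41 (edgeR adjusted p = 0.00156). Tcap, the titin cap, rose under 5FU (0.86) with -0.20 under Ace, a difference of -1.06 ± 0.26 (edgeR adjusted p = 0.000545). Among the 13 cardiomyocyte markers, 4 fell and 1 rose under Ace, and 7 fell and 2 rose under 5FU, with a median of -0.25 for each. In this list the difference was higher for 4 and lower for 3 (53.8% called, median 0.085), and Tnnt2 lost its call without the first DMSO1_24 library (0.25). Their part in the result was not tested.

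Calcium handling genes fell more often than they rose. Of 24 genes, 13 fell and 5 rose under Ace (median -0.23), and 15 fell and 5 rose under 5FU (median -0.47). Set against 5FU, the difference was higher under Ace for 10 and lower for 3 (54.2% called, median 0.24). Ryr2, the calcium release channel, changed by -0.36 under Ace and -1.51 under 5FU, a difference of 1.15 ± 0.16 (edgeR adjusted p = 1.97e-08). Atp2a2, the SERCA pump, changed by -0.44 and -1.31, a difference of 0.88 ± 0.10 (edgeR adjusted p = 1.02e-10). Of 28 cardiac ion channels and connexins, 12 fell under Ace (median -0.21), and 14 fell and 7 rose under 5FU (median -0.41). Called differences were higher under Ace for 10 and lower for 5 (53.6% called, median 0.32). Kcnh2, the hERG potassium channel, fell under Ace (-0.45) and rose under 5FU (0.37), a difference of -0.83 ± 0.12 (edgeR adjusted p = 2.66e-08). Gja5, connexin 40, changed by -0.63 and -1.97, a difference of 1.34 ± 0.17 (edgeR adjusted p = 2.93e-09).

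Of 13 genes for natriuretic peptides and the fetal program, 4 fell and 2 rose under Ace (median -0.25), and 8 fell and 1 rose under 5FU (median -0.73). Nppa, the atrial natriuretic peptide, rose under both drugs and further under 5FU (0.74 and 1.88), a difference of -1.13 ± 0.23 (edgeR adjusted p = 4.03e-05). Of the 13, 5 had a called difference (38.5%), against 37.3% of all genes, higher under Ace for 4, among them the clearance receptor Npr3 (1.45 ± 0.28, edgeR adjusted p = 1.72e-05), with Nppa the 1 lower gene (median 0.43). Of 19 cardiac transcription factors, 7 fell and 1 rose under Ace (median -0.13), and 7 fell and 2 rose under 5FU (median -0.22). Between the drugs, the difference was higher for 5 and lower for 4 (47.4% called, median 0.14). Tbx5 fell under Ace (-0.43) and rose under 5FU (0.97), a difference of -1.40 ± 0.12 (edgeR adjusted p = 9.77e-15).

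Of 13 endothelial markers, 10 fell under Ace (median -0.71) and 9 under 5FU (median -0.7), and 3 differences were called (23.1%), 2 higher and 1 lower under Ace (median 0.01, and 0.08 without the first DMSO1_24 library). Their summed level, led by Cdh5, was 254.4, 313.4 and 405.5 CPM in Ace_24 against 413.5, 472.4 and 523.5 CPM in DMSO2_24. It was 212.9, 240.2 and 242.7 CPM in 5FU_24 against 312.3, 391.7 and 425.2 CPM in DMSO1_24, so neither drug group overlapped its control. Of 14 macrophage markers, 10 fell under Ace (median -0.57), and 6 fell and 1, C1qc, rose under 5FU (median -0.23). Tested as such, the difference was higher for 1, Mrc1, and lower for 2, Cd68 and Cd14 (21.4% called, median -0.22). Their summed level, led by Lyz2, was 106.2, 123.4 and 133.1 CPM in Ace_24 against 150.8, 175.7 and 183.3 CPM in DMSO2_24. In 5FU_24 it was 120.7, 127.3 and 139.2 CPM against 145.1, 169.2 and 178.7 CPM in DMSO1_24, again without overlap.

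The summed level of 12 smooth muscle and pericyte markers, led by Abcc9, was 1133, 1228 and 1329 CPM in Ace_24 against 1534, 1632 and 1716 CPM in DMSO2_24. It was 920.6, 947.9 and 1037 CPM in 5FU_24 against 1262, 1552 and 1690 CPM in DMSO1_24, without overlap, and the difference was higher under Ace for 3 and lower for Myh11 (33.3% called, median 0.33). Of 9 epicardial and mesothelial markers, 6 fell and 1 rose under Ace (median -0.58) and 8 fell under 5FU (median -0.88), with 3 differences higher under Ace (33.3%, median 0.36), 1 of which, Upk1b, was lost without the first DMSO1_24 library (0.47). Their summed level, led by Tbx18, was 31.36, 33.05 and 38.75 CPM in Ace_24 and 40.09, 44.72 and 51.41 CPM in DMSO2_24. It was 24.08, 26.04 and 28.1 CPM in 5FU_24 and 35.85, 44.64 and 47.87 CPM in DMSO1_24, so both drug groups lay below. Of 8 Schwann and neural markers, 2 fell under Ace (median -0.22), and 4 fell and 1 rose under 5FU (median -0.44), with 3 differences higher under Ace (37.5%, against 37.3% of all genes, median 0.11). Their summed level, led by Ncam1, overlapped between Ace_24 (263.5, 284.5 and 311.7 CPM) and DMSO2_24 (265.9, 284.4 and 318.9 CPM). It lay lower in 5FU_24 (190.9, 223.7 and 236.2 CPM) than in DMSO1_24 (246.7, 267.8 and 327.4 CPM). No marker of these lists was at the floor, and their part in the other results was not tested.

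The remaining lists moved both ways under each drug. Of 28 immediate early genes, 7 rose and 2 fell under Ace (median 0.16), and 10 rose and 5 fell under 5FU (median 0.032, and 0.073 without the first DMSO1_24 library). The difference was called for 4, 2 in each direction (14.3%, median 0.049), and for 2 higher and 5 lower without the first DMSO1_24 library (median -0.011). Myc, the growth regulator, fell under 5FU (-1.87) with -0.20 under Ace, a difference of 1.67 ± 0.21 (edgeR adjusted p = 1.62e-09), whereas Atf3 lost its call without that library (0.92, then 0.92). Of 28 chemokines and cytokines, 6 rose and 8 fell under Ace (median 0.081), and 5 rose and 7 fell under 5FU (median 0.1). The difference was called for 6, 3 in each direction (21.4%, median 0.05, and -0.036 without the first DMSO1_24 library), with Cxcl2, which draws in neutrophils, at 2.05 ± 0.65 (edgeR adjusted p = 0.00707). Of 19 circadian clock and PAR bZIP genes, 6 rose and 4 fell under Ace (median 0.094), and 6 rose and 3 fell under 5FU (median 0.062). Per1, a repressor of the clock, rose under 5FU (1.52) with 0.18 under Ace, a difference of -1.34 ± 0.13 (edgeR adjusted p = 4.83e-13). In that list 3 differences were higher and 2 lower (26.3% called, median 0.011, and -0.056 without that library).

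Of 23 hypoxia response genes, 1 rose and 2 fell under Ace (median -0.081), and 5 rose and 9 fell under 5FU (median -0.26). In this list the difference was higher for 5 and lower for 5 (43.5% called, median 0.12), and Vegfa, the endothelial growth factor, lost its call without the first DMSO1_24 library (0.66, then 0.65). Of 19 genes for metallothioneins, zinc and iron, 6 rose and 5 fell under Ace (median 0.01), and 7 rose and 7 fell under 5FU (median 0.083, and 0.14 without that library). Set against 5FU, the difference was higher for 6 and lower for 6 (63.2% called), with a median of -0.03 that turned positive when scaled by library size alone and was -0.078 without that library. The metal-binding Mt1 rose under both and further under 5FU (0.61 and 1.43), a difference of -0.81 ± 0.19 (edgeR adjusted p = 0.000295). Of 17 Bcl2 family genes, 2 rose and 4 fell under Ace (median 0.052), and 7 rose and 4 fell under 5FU (median 0.26). A difference was called for 5 of the 17 (29.4%), against 37.3% of all genes, lower under Ace for 4, including Bok, a relative of Bax (-0.69 ± 0.12, edgeR adjusted p = 2.07e-06), and higher for Pmaip1 (median -0.21).

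**Figure D3:**
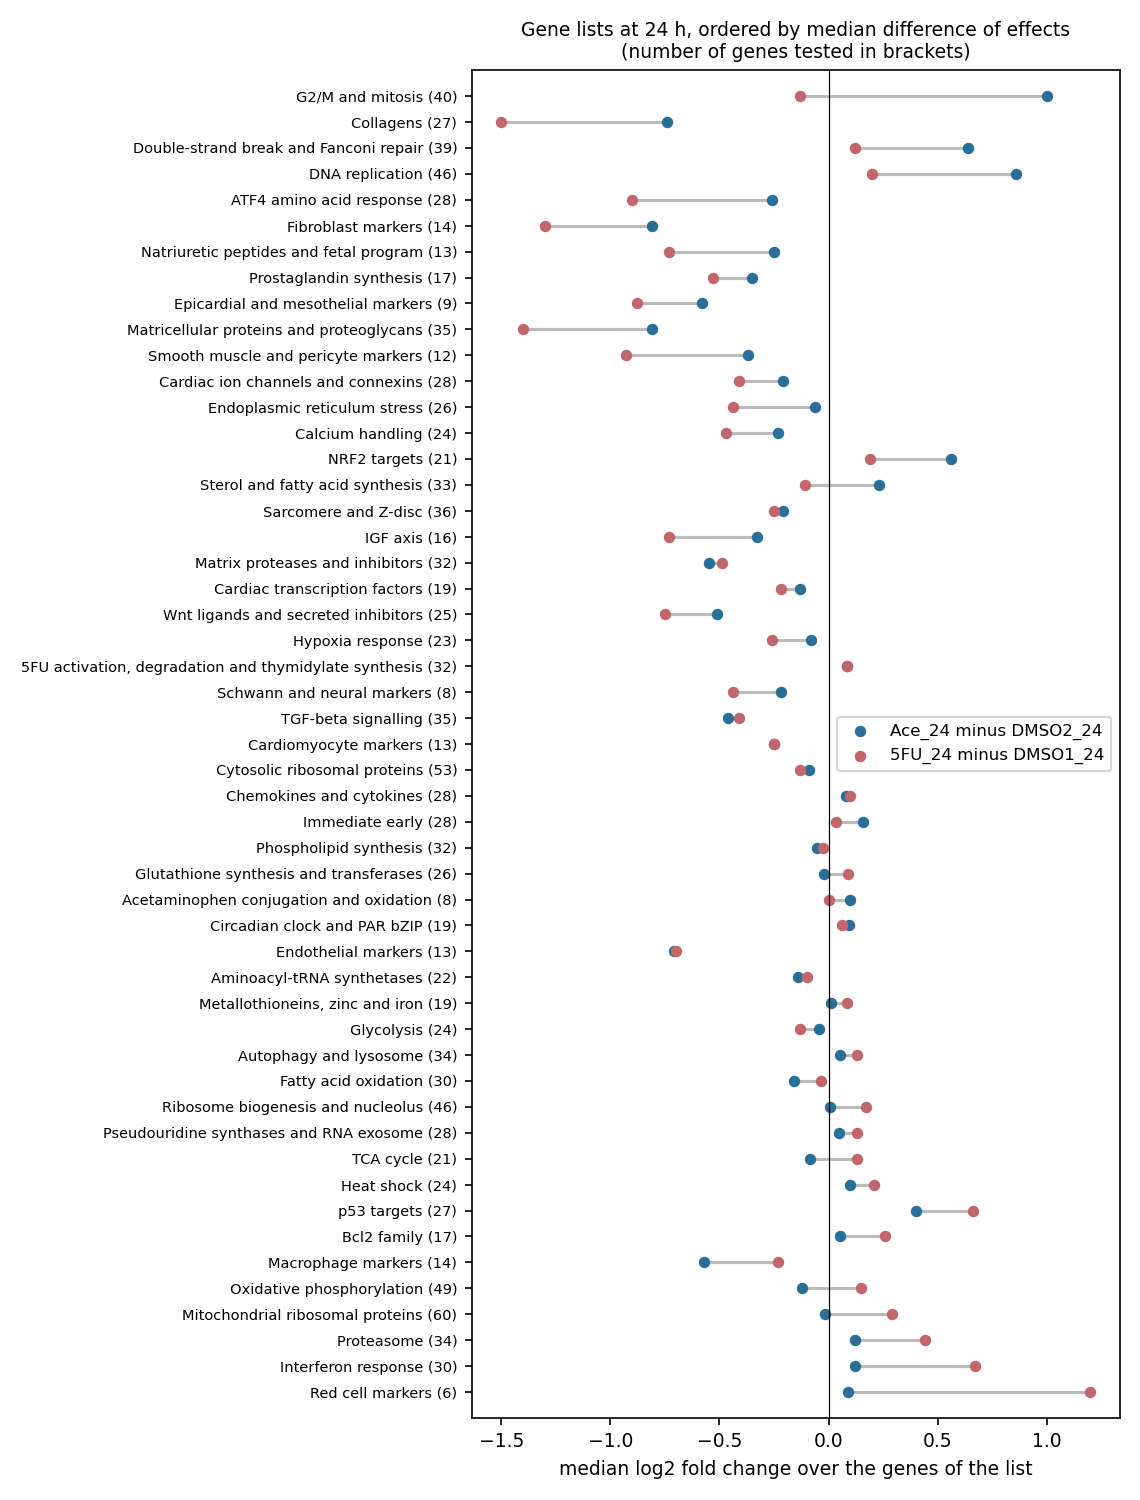
Median log2 fold change of 51 gene lists under Ace (blue dots) and 5FU (red dots), joined by a gray line and ordered by the median difference, with the number of genes tested in brackets. G2/M and mitosis genes stand at the top (median difference 1.1) and red cell markers at the bottom (-1.1), and scaling by library size alone turned the sign of the Ace median of 4 lists and of the median difference of 2.

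The same difference was measured at 6 h in libraries that the 24 h comparison does not use. At 6 h 4504 genes (30.9%) differed, 2496 higher under Ace (17.1%) and 2008 lower (13.8%). Over all 14554 genes Ace raised 2404 and lowered 2215 at 6 h (median 0.0023), and 5FU raised 3408 and lowered 3563 (median -0.0016). Of the 5429 genes called at 24 h, 2020 were called in the same direction at 6 h, which is 37.2% of the 24 h genes and 44.8% of the 6 h genes, and 247 were called in the opposite direction. The change of the difference from 6 to 24 h was called for 2880 genes (19.8%), 1356 upward (9.32%) and 1524 downward (10.5%). The balance turned to 1340 upward and 1296 downward when scaled by library size alone, and to 1673 and 1437 with the compared groups alone. With an absolute log2 fold change of at least 1 as well, it was 437 upward and 189 downward. At 6 h 29 of 40 G2/M and mitosis genes fell and 1 rose under Ace (median -0.64), and 32 fell under 5FU (median -0.92). Their difference was higher under Ace for 9 at 6 h (median 0.23) and moved upward for 24 from then to 24 h. For 16 of 27 collagens the difference also moved upward, from a median of -0.28 at 6 h, when no collagen had a called difference. Cytosolic ribosomal proteins rose under 5FU at 6 h for 50 of 53 (median 0.32), the difference was lower under Ace for 2 (median -0.25), and it moved upward for 12. Oxidative phosphorylation genes rose under 5FU at 6 h for 47 of 49 (median 0.35), and 34 differences were then lower under Ace (median -0.34), with 3 that moved upward. Other lists moved downward. For ribosome biogenesis and the nucleolus, 11 differences were higher and 3 lower under Ace at 6 h, and 10 moved downward with none upward. For heat shock genes, 9 were higher and 1 lower at 6 h, and 8 moved downward and 1 upward.

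The 48 named genes were chosen by their 24 h values, which the change from 6 to 24 h contains. Among them, 10 differed at 6 h with a higher and 10 with a lower value under Ace. The difference changed from 6 to 24 h for 24 of them, 15 upward and 9 downward, against 19.8% of all genes. Without the first DMSO1_24 library it changed for 28, 16 upward and 12 downward. Tg differed at both times, with -2.67 at 6 h and no call for the change (-0.29 ± 0.49, edgeR adjusted p = 0.703), nor without that library (edgeR adjusted p = 0.0234). Mettl17 also differed at both times, at -1.31 at 6 h with no call for the change (-0.18 ± 0.18, edgeR adjusted p = 0.487). Rbm14 was at -1.34 at 6 h, when it rose under both drugs (0.76 under Ace and 2.10 under 5FU). The change of its difference was not called (-0.36 ± 0.28, edgeR adjusted p = 0.364) but was without that library (-0.83, edgeR adjusted p = 5.85e-06). The other 3 that gained a call without it were Masp2, Nudt11 and Sertad4. Nt5dc2 was at 0.07 at 6 h with no call, a change of 2.33 ± 0.22 (edgeR adjusted p = 3.41e-12). Parpbp fell under Ace at 6 h (-0.51) and rose at 24 h, and its difference changed by 1.75 ± 0.29 (edgeR adjusted p = 3.35e-06). Gls2 rose under both drugs at 6 h (0.69 and 0.45) and fell under 5FU at 24 h, a change of 1.74 ± 0.26 (edgeR adjusted p = 5.1e-07). Plau, chosen for a like fall at 24 h, differed at 6 h (-1.24), a change of 1.29 ± 0.27 (edgeR adjusted p = 0.00016).

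RefSeq promoters of the GRCr8 build, 250 bases before to 50 bases after the start, were matched by gene identifier to 38 of the 48 named genes and to 11403 of the genes tested. Both strands were searched for the ARE (TGACNNNGC), the C/EBP-ATF element (TGATGNAA), the CRE (TGACGTCA), the E-box (CACGTG), E2F sites (TTTGGCGC, TTTCGCGC or TTTCCCGC), the CCAAT box (CCAAT) and the p53 response element by its single site. A CCAAT box was found in 22 of the 38 (57.9%) against 37% of all promoters, and in 8 of 8 of the genes that rose alike. An E2F site was found in 5 (13.2%) against 3.29%, namely Pclaf, Gls2, Timeless, Haus3 and Mien1, and an ARE in 11 (28.9%) against 14.5%, but not in Nqo1. The p53 site was found in 3 (7.89%) against 6.78%, the E-box in 4 (10.5%) against 9%, the C/EBP-ATF element in 1 (2.63%) against 2.08%, and the CRE in 2.96% of all promoters but in no named gene. A match is a description of letters and not a site of binding.

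The promoters of 2 genes moved apart and of 2 genes moved alike are printed to show these letters 5′ to 3′, with every motif found in capitals. Timeless (chr7:1239200-1239499, + strand) holds an E2F site, and Gls2 (chr7:1201629-1201928, + strand) holds an E2F site, a CCAAT box on the other strand and an ARE, in that order. Nqo1 (chr19:52220218-52220517, - strand) and Tubb4b (chr3:28438406-28438705, - strand) hold 2 and 4 CCAAT boxes.
Timeless: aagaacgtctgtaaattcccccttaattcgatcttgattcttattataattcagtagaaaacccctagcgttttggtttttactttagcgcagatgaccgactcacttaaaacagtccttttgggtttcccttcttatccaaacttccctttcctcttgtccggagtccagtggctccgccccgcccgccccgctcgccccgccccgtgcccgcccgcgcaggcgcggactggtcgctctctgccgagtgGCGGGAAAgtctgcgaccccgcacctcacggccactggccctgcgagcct
Gls2: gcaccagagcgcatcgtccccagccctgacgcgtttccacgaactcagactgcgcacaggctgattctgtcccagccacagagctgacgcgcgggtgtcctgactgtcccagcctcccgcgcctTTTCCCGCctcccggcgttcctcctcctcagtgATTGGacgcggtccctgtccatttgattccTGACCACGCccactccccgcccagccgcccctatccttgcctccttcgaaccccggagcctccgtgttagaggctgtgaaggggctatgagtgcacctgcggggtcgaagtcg
Nqo1: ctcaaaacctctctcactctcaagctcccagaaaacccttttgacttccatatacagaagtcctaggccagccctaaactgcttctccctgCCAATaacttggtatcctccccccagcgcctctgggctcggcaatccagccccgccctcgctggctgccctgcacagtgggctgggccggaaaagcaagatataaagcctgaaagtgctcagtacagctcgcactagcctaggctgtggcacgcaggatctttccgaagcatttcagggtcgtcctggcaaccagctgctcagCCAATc
Tubb4b: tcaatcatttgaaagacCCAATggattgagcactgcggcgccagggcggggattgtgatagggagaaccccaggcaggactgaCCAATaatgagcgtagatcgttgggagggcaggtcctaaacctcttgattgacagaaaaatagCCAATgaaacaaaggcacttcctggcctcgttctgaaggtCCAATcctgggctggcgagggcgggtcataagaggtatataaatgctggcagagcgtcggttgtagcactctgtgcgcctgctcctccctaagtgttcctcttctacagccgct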

How the data were processed

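The deposited table holds estimated counts for 14554 genes, which the authors made with kallisto 0.46.0 according to their processing notes, which also name DESeq2. Counts were analysed with edgeR 4.0.16 in R 4.3.3, with TMM scaling and a quasi-likelihood fit over all 65 libraries and 10 groups, and genes were called at FDR < 0.01 over all genes. DESeq2 1.42.0 served as an alternative, beside other scalings, filters and thresholds. Symbols for 14009 genes came from RefSeq GRCr8. Named genes had a symbol that is no placeholder, a mean count of at least 100 over the 26 libraries, and the same calls without the first DMSO1_24 library. The sign of a difference that was not called could change, as it did for Nqo1, Lum and Adamts14. Among these they were the 10 largest called differences in each direction, the 8 genes of each opposite direction with the largest smaller effect of both drugs, and the 8 genes in each direction moved alike, ranked the same way, with the 95% interval of the difference within 0.5. Any list member could be named beside its list's counts, and those were chosen after their values were seen. The 51 gene lists and their members were chosen with earlier results of these data known. Promoters are described by letters alone.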

Additional observations from a re-analysis of the deposited data

Results flagged for a closer look

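In 29 of 192 combinations of a named gene and a group, 1 library lay far from the others, measured as its gap to the nearest library over the range of the group; chance gives about 1 in 20. The first DMSO1_24 library accounted for 18 of the 29: Nt5dc2 0.757, Col6a6 0.812, C6h14orf180 0.647, Tg 0.766, Adprhl1 0.751, Rbm14 0.823, Rasgrp1 0.689, Dph7 0.702, Slc2a13 0.676, Gls2 0.815, Nqo1 0.712, Lum 0.847, Adamts14 0.656, Eln 0.655, Gpm6b 0.744, Lypd1 0.717, Tm4sf1 0.679 and Sertad4 0.792. The last Ace_24 library accounted for 5: E2f8 0.589, Parpbp 0.704, Ankle1 0.669, Scd 0.689 and Nudt11 0.686. The fourth DMSO2_24 library accounted for 2: Cbarp 0.604 and Lypd1 0.587. The remaining 4 each came from another library: Nt5dc2 0.726 in the sixth 5FU_24 library, Col6a6 0.674 in the second 5FU_24 library, Rbm14 0.576 in the second Ace_24 library and E2f8 0.605 in the last DMSO2_24 library. The cause was not tested.

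Named genes were chosen by their 24 h values, which a change from 6 to 24 h contains, so its direction partly follows that choice. The difference between the effects of Ace and 5FU changed from 6 to 24 h for 24 of the 48 named genes (edgeR, FDR < 0.01), against 19.8% of all genes. On the log2 scale it moved upward for 15: Nt5dc2 2.33, E2f8 2.32, Lims2 2.59, Col6a6 2.33, Ncaph 1.61, Parpbp 1.75, Pclaf 1.86, C6h14orf180 2.85, Ankle1 1.51, Diaph3 1.75, Gls2 1.74, Scd 1.39, Timeless 0.76, Nudt6 0.85 and Plau 1.29. It moved downward for 9: Adprhl1 -2.03, Myh11 -1.15, Aqp7 -1.57, Rasgrp1 -1.28, Dph7 -0.71, Syt14 -1.51, Yipf7 -1.27, Stk36 -0.93 and Adcy1 -1.34.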

How the results depend on the processing

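All 7 counts kept within 1.5 times their value with DESeq2, with DESeq2 size factors, with library size alone, with the compared groups alone and with a filter on low counts that left out 60 genes. With DESeq2, 5573 genes differed at 24 h, 3217 moved alike and 566 moved in opposite directions. At FDR < 0.1 the counts rose to 4743 genes moved alike, 1230 moved in opposite directions, 7017 that differed at 6 h and 5447 that changed from 6 to 24 h. With an absolute log2 fold change of at least 1 they were 915 for the difference at 24 h (718 higher and 197 lower under Ace), 891 for Ace (378 up, 513 down), 1490 for 5FU (316 up, 1174 down), 408 moved alike (56 up, 352 down), 7 moved in opposite directions, all up under Ace and down under 5FU, 558 at 6 h (388 higher, 170 lower) and 626 for the change (437 up, 189 down), so the directions were less even than without this limit.

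Fits that dropped a single library found between 5096 and 5748 genes for the difference at 24 h, 5082 to 5351 for Ace, 7715 to 8304 for 5FU, 2991 to 3249 moved alike, 494 to 595 moved in opposite directions, 4171 to 4611 at 6 h and 2683 to 3227 for the change. Scaling by library size alone raised the share of rising genes from 48.8 to 61.4% for Ace, from 43.4 to 53.4% for genes moved alike and from 47.1 to 50.8% for the change, and the share higher under Ace from 51.2 to 60.9% for the difference at 24 h, from 59.8 to 79% for genes moved in opposite directions and from 55.4 to 64.3% at 6 h. For 5FU it lowered the rising share from 50.1 to 49.6%. With the low-count filter 49.8% of the differences at 24 h were higher under Ace, against 51.2%, and 50.3% of the Ace genes rose. With the compared groups alone 53.8% of the changes were upward. Ace_24 against 5FU_24 with no control subtracted gave 8019 genes.

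Of the 48 named genes, the 32 with a called difference kept the call and its direction in all 26 fits without 1 library. The 16 moved alike kept a difference that was not called, whose sign changed between fits for some. Keeping these calls without the first DMSO1_24 library was a condition of being named. The genes were also chosen by the same fitted values, so the kept calls are no separate support. Under the other alternatives the genes whose difference changed its side of the threshold were Adcy1, below an absolute log2 fold change of 1, and 7 of the genes moved alike, which differed in the direct contrast. Of 51 list medians, 51 kept within the spread with DESeq2 size factors, 30 with library size alone and 45 without the first DMSO1_24 library. No paired analysis was possible because the columns of the count table carry no replicate numbers. Depth limits the genes with fewer than 10 counts in a library.

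Limits: each drug was given at 1 dose, in different shares of DMSO, so drug and dose cannot be told apart. The cultures came from 1 mixed cell pool, so spread between animals was not measured. RNA was measured in bulk, without protein or cell counts. The first DMSO1_24 library was kept, and counts of called differences in a list that moved by over 1.5 times without it are given beside the results.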
